A study of Mus musculus with 6 samples.

Results

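The collagen chains are the products of genes whose mouse symbol reads Col, a number, a and a number, from Col1a1 to Col28a1. In the table of 49671 genes measured here, 44 genes had such a symbol, all of them annotated as protein coding, and no pseudogene had to be left out. Collagens are secreted proteins made of chains wound into a triple helix. Fibrillar collagens (types I, II, III, V, XI, XXIV and XXVII) build the rope-like fibrils of connective tissue, and fibril-associated collagens (FACITs) bind to the surface of those fibrils. Type IV collagen forms the sheet of basement membranes, types VIII and X form networks, type VI forms beaded microfilaments, and types XV and XVIII (multiplexins) sit at the edge of basement membranes. In fat, each adipocyte is wrapped in a basement membrane with type IV collagen and is surrounded by type VI collagen, and preadipocytes replace part of their fibrillar matrix with basement membrane as they mature.

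Levels were compared between 3 knockout and 3 control libraries of one mouse cell line, made from sorted preadipocytes of the inguinal fat of C57BL/6 mice 3 months old. Cells of both groups carried floxed Tcf7l2 alleles (Tcf7l2 F/F), SV40 large T antigen for immortalisation and retroviral CreERT2, a Cre recombinase that 4-hydroxytamoxifen activates. Knockout cells received 4-hydroxytamoxifen, and control cells, whose genotype label is wild type, received the solvent ethanol (EtOH). Both treatments lasted 24 h, 2 days before differentiation was started with dexamethasone, isobutylmethylxanthine and insulin, and cells were taken on day 8. Tcf7l2 encodes a transcription factor through which beta-catenin acts in Wnt signalling. An agent at 5 nM is also listed, under a code number that goes up by 1 with each library, and whether the libraries truly received different agents cannot be told from the labels. Loss of Tcf7l2 and exposure to 4-hydroxytamoxifen coincide and cannot be told apart. Whether the 3 libraries of each group come from separate cultures is not stated, so p-values here measure library-to-library spread that may be technical only.

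Total counts ran from 26764263 to 31520011 in knockout libraries and from 26621293 to 33484764 in control libraries. The targeted gene, Tcf7l2, had 5.65, 6.85 and 5.86 CPM (counts scaled to 1000000 per library) in knockout libraries, against 7.71, 6.13 and 9.11 CPM in control libraries. These ranges overlap, and the log2 fold change of Tcf7l2 was -0.32 (SE 0.14, edgeR quasi-likelihood test, adjusted p = 0.125). It was -0.46 without control replicate 2 (adjusted p = 0.0322), and counts over the whole gene do not show whether a floxed part was lost. Knockout replicate 2 and control replicate 3 stood apart from the other libraries on the second principal component, which held 15.9% of the variance. Results of single chains that rest on either library are given with and without it. Summed markers of adipocytes were at 8260.0 to 9992 CPM in knockout libraries and 5677 to 5933 CPM in control libraries. Of these markers 6 of 6 rose, where 11.9% of all genes tested rose. Summed markers of preadipocytes and fibroblasts, the main collagen makers of fat, were at 2260.1 to 2399 CPM in knockout libraries and 2103 to 2329 CPM in control libraries. Of these, 1 of 6 fell and no other passed the test, where 10.5% of all genes tested fell. Most of the sum was Pdgfra and Ly6a, which moved in opposite directions without being called. Pdgfra had 1135 CPM in knockout cells and 1247 in control cells (edgeR adjusted p = 0.0593). Ly6a had 918 CPM in knockout cells and 671 in control cells (edgeR adjusted p = 0.0539). The sum therefore hides both of these uncalled differences. Among the other cell types checked, summed markers did not exceed 34.1 CPM in knockout libraries and 34.4 CPM in control libraries, and Kdr (endothelial) and Rgs5 (mural) rose among them. The endothelial genes Pecam1, Cdh5 and Emcn were too low to test, and Adgre1 (macrophage), Sox10 (Schwann cell), Chad and Snorc (chondrocyte) had no count. The part of the adipocyte markers in the collagen differences was not tested. In bulk RNA, fewer cells that make a chain and less of its RNA per cell cannot be told apart.

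Collagen RNA took a lower share of the counts in the knockout cells, and the 2 chains of type VIII moved in opposite directions. All chains together took 4.59%, 4.70% and 4.46% of the counts of the knockout libraries, against 5.31%, 5.45% and 5.63% of those of the control libraries. Every knockout library was below every control library, and the group means were 4.58% ± 0.122 and 5.46% ± 0.163 (SD, n = 3 each), a ratio of 0.838. Col3a1 alone had a mean of 20526 CPM in knockout cells and 24963 CPM in control cells. The shares of all chains and of the fibrillar chains, which are not scaled by length, thus rest in large part on Col3a1. Fibrillar chains held 3.14%, 3.15% and 3.01% of all counts in knockout libraries and 3.62%, 3.78% and 3.83% in control libraries. Type IV chains held 0.344%, 0.351% and 0.325% in knockout libraries and 0.433%, 0.461% and 0.466% in control libraries, a ratio of 0.75. Both classes lay lower in all 3 knockout libraries. So did the summed chains of type VI and its like, at 0.919% to 0.994% in knockout libraries and 1.004% to 1.114% in control libraries. That sum is mostly Col6a1, Col6a2 and Col6a3, while in this class edgeR called 3 chains higher and 2 lower. Multiplexins were lower too, at 0.0835% to 0.0913% in knockout libraries and 0.0997% to 0.114% in control libraries. The same held for Col26a1, at 5.60e-05% to 7.93e-05% in knockout libraries and 1.88e-04% to 2.03e-04% in control libraries. FACIT chains held 0.0671% to 0.0748% in knockout libraries and 0.0696% to 0.0764% in control libraries, so their ranges overlapped. Network chains held a higher share in all knockout libraries, at 0.0344% to 0.0367%, against 0.0309% to 0.0330% in control libraries (a ratio of 1.13). The anchoring fibril chain, at 0.000661% to 0.000699% in knockout libraries and 0.000515% to 0.000561% in control libraries, was also higher in all knockout libraries. So were the summed transmembrane chains, at 0.000584% to 0.000676% in knockout libraries and 0.000473% to 0.000570% in control libraries. That sum is mostly Col23a1, while edgeR called 1 of the 3 tested chains of this class lower. No test was planned for these shares.

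Of the 44 chains, 35 had enough counts to be tested. A chain is called changed where the p of edgeR's quasi-likelihood test, adjusted by the Benjamini-Hochberg method over all 14946 genes tested, was under 0.05. By that measure 14 chains fell, 6 rose and 15 were not called. Of the tested chains 40% fell, 17.1% rose and 57.1% changed in either direction, against 10.5%, 11.9% and 22.4% of all genes tested. The median log2 fold change was -0.17 over the 35 tested chains and -0.0017 over all genes tested. Among chains whose average log2 CPM was 5 or more, a limit chosen after the values were seen, 12 of 20 fell and 1 rose, while 17% of all genes at that level fell and 14.5% rose. Below that limit 2 of 15 chains fell and 5 rose, where 6.22% of all genes fell and 10.2% rose. All 3 knockout libraries lay below all 3 control libraries for 16 tested chains, and above them for 7 (19.3% and 18.5% of all genes tested). One of the 14 falls, that of Col13a1, is of a chain that reached the filter on low counts in 0 knockout and 3 control libraries, so that it had to be lower in knockout libraries to be tested, and 13 falls remain without it. Col6a5 and Col6a6 reached the filter level in 3 knockout and 2 control libraries, and Col17a1 in 2 knockout and 3 control libraries.

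**Figure D1:**
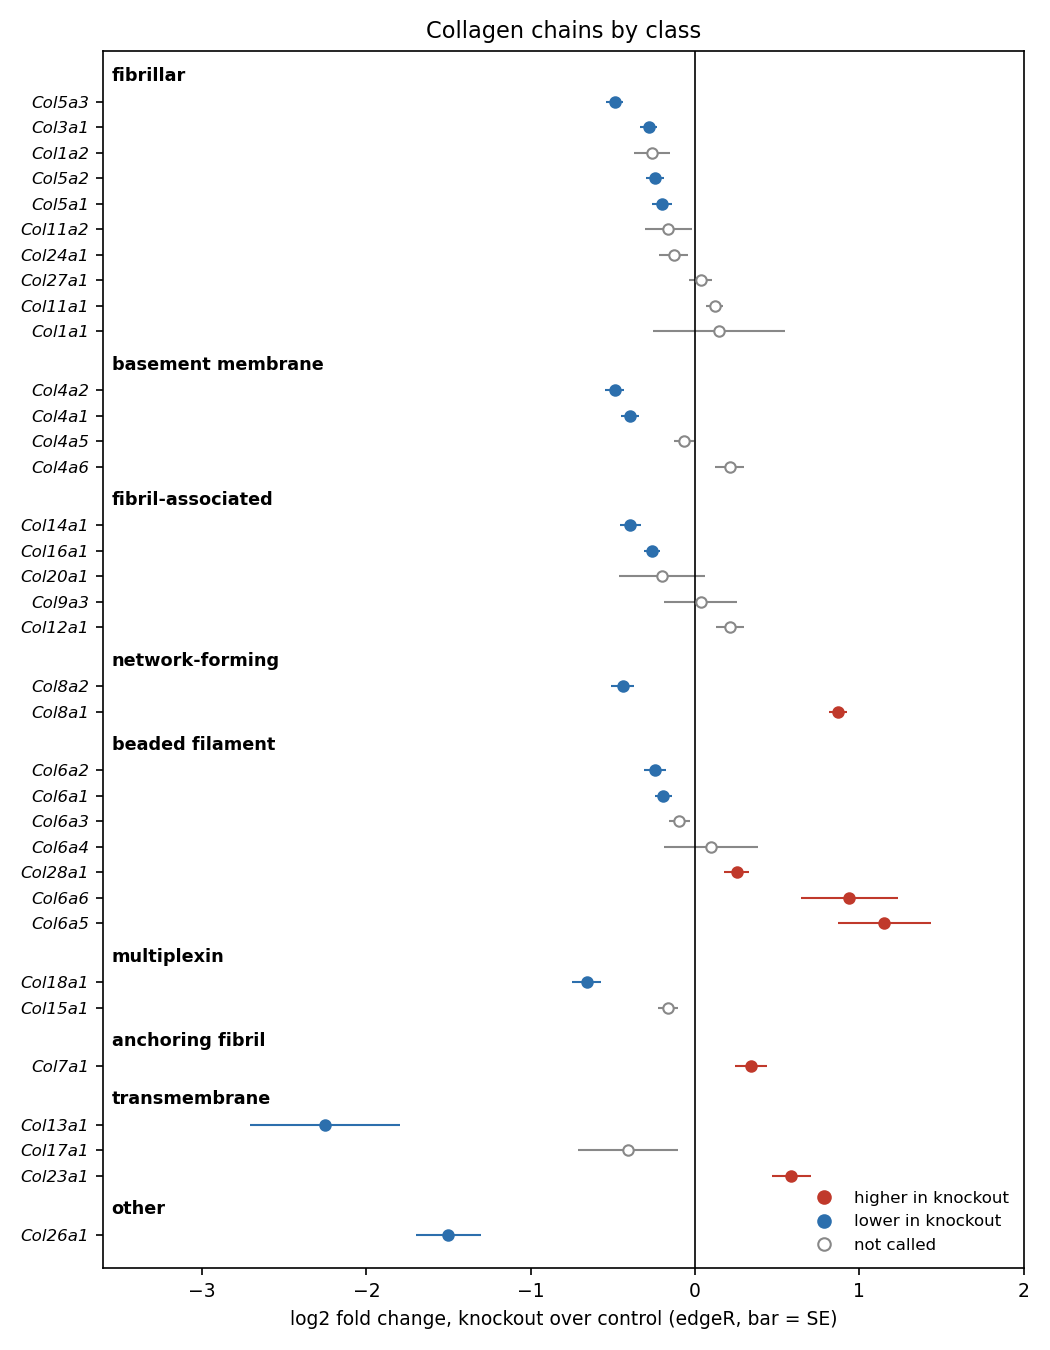
Log2 fold changes (knockout over control) of the 35 tested collagen chains, grouped by class, with bars of 1 SE and colours for chains called higher, lower or not called by edgeR. Col3a1 (-0.28), Col4a1 (-0.40) and Col6a1 (-0.19) lie left of 0 and Col1a1 (0.15, not called) right of it, while Col8a1 stands at 0.87 and Col8a2 at -0.44 within one class.

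The remaining 9 chains were too low to test. Col2a1, Col9a1, Col9a2 and Col10a1, chains of cartilage, had 0 to 13 counts per library, as had Col4a3 and Col4a4, chains of the kidney filter, and Col19a1, Col22a1 and Col25a1. At this depth 3 counts, the limit that a count of 0 allows, correspond to 0.0952 to 0.112 CPM in knockout libraries and 0.0896 to 0.113 CPM in control libraries, covering counting error only.

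Scaled by the length of each gene's exons, levels spanned a wide range. Col3a1 was the most abundant chain at 2091 ± 78.2 CPM per kilobase in knockout cells and 2543 ± 56.2 in control cells (SD, n = 3 each here and below). Col6a1 followed at 860.1 ± 23.5 CPM per kilobase in knockout cells and 984 ± 36.3 in control cells. Scaled by exon length, these chains of type III and type VI lay above both type I chains. Col5a2 had 432 ± 26.2 CPM per kilobase in knockout cells and 511 ± 5.23 in control cells. Next in the control cells came Col1a2 at 427 ± 45.1, Col6a3 at 418 ± 33.2 and Col4a1 at 412 ± 16.7 CPM per kilobase. By this length they did not differ beyond their spread. Per kilobase of the longest transcript, the same chains were at 993, 495 and 464 CPM in control cells. By coding length they were at 1290, 508 and 614 CPM, so Col1a2 stood above the others by both of these lengths. Col5a2, at 740 and 1091 CPM by these lengths in control cells, was also below Col1a2. Col6a1, at 1051 and 1401 CPM, stayed above Col1a2 by a narrower margin. In the knockout cells Col1a2 was at 356 ± 49.4, Col6a3 at 391 ± 20.0 and Col4a1 at 313 ± 13.3 CPM per kilobase. Col4a2 (138 ± 8.06 in knockout cells, 194 ± 8.47 in control cells), Col6a2, Col15a1, Col5a1 and Col1a1 lay between 98.0 and 194 CPM per kilobase in either group. The same 10 chains led the control cells when the longest transcript or the coding length was used, though their order shifted.

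**Figure D2:**
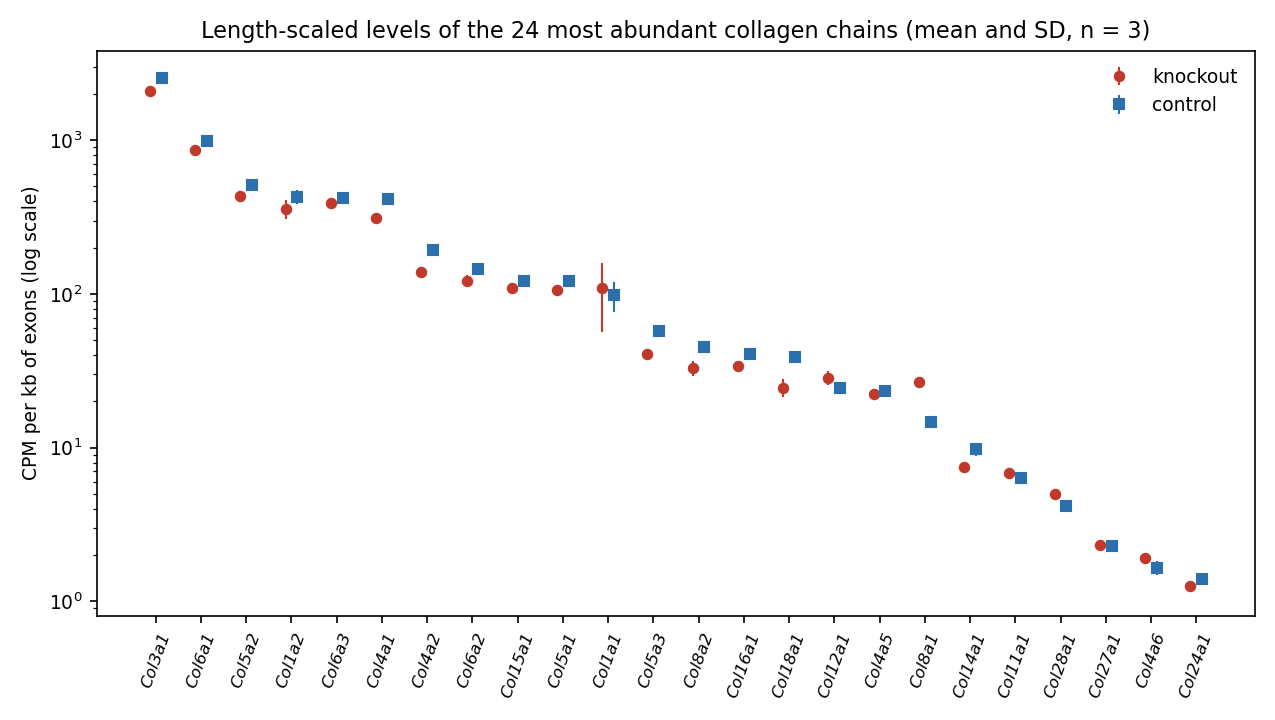
Level of the 24 collagen chains highest in control cells, in CPM per kilobase of exon on a log axis. Points are knockout and control means with their SD (n = 3 each). Col3a1 and Col6a1 lead in both groups, and the chains span more than the differences between groups do.

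Among the fibrillar chains, 4 of 10 tested fell and 6 were not called, where 10.5% of all genes tested fell. No fibrillar chain was called higher (edgeR; 1 had an unadjusted p under 0.05, and DESeq2 and limma-voom also called 0). The chains that fell were those of types III and V. Col3a1, the single chain of type III collagen (chr1:45311538-45349706, GRCm38, plus strand), had 21405, 20184 and 19988 CPM in knockout libraries, against 24346, 25408 and 25136 CPM in control libraries. The groups did not overlap, and Col3a1 was 1.22-fold lower (log2 fold change -0.28 with an SE of 0.052, edgeR adjusted p = 0.00152). Type V collagen is a minor chain partner that starts fibrils and sets their width. Col5a2, its α2 chain (chr1:45374321-45503282, minus strand), had 4400.2, 3899 and 4121 CPM in knockout libraries, against 4885, 4957 and 4861 CPM in control libraries. It was 1.18-fold lower (log2 fold change -0.24 with an SE of 0.054, edgeR adjusted p = 0.00517), with all knockout libraries below all control libraries. Col5a3, the α3 chain (chr9:20770050-20815067, minus strand), had 292, 265 and 278 CPM in knockout libraries, against 383, 384 and 406 CPM in control libraries. This was the largest fall among the fibrillar chains tested, 1.40-fold (log2 fold change -0.49 with an SE of 0.051, edgeR adjusted p = 1.32e-05). Col5a1, the α1 chain (chr2:27886425-28039514, plus strand), had 852, 950.0 and 893 CPM in knockout libraries, against 968, 1015 and 1119 CPM in control libraries. The groups lay close together without overlap, and Col5a1 was 1.15-fold lower (log2 fold change -0.20 with an SE of 0.060, edgeR adjusted p = 0.0276). The call on Col5a1 was lost without control replicate 2 (adjusted p = 0.0591), control replicate 3 (0.109), knockout replicate 1 (0.0931) or knockout replicate 3 (0.101).

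Type I collagen, the main fibril of skin and bone, was not called for either chain, and here the libraries that stand apart matter. Col1a1 had 463, 1097 and 575 CPM in knockout libraries, against 547, 575 and 807 CPM in control libraries. Knockout replicate 2 held 2.11 times the mean of the other knockout libraries, and control replicate 3 held 1.44 times that of the other control libraries. The groups overlapped, with a log2 fold change of 0.15 (SE 0.40, edgeR adjusted p = 0.844). Without knockout replicate 2 the log2 fold change of Col1a1 was -0.31 (adjusted p = 0.497), and without that library and control replicate 3 it was -0.11 (adjusted p = 0.552). Col1a2 had 4034, 5133 and 4109 CPM in knockout libraries, against 4873, 5114 and 5942 CPM in control libraries. Again knockout replicate 2 lay above the other knockout libraries (1.26 times their mean) and control replicate 3 above the other control libraries (1.19 times). The log2 fold change of Col1a2 was -0.26 (SE 0.11, edgeR adjusted p = 0.126), and without knockout replicate 2 it was -0.38 (adjusted p = 0.0032). With both libraries left out it was -0.29 (adjusted p = 3.80e-04). In the other 18 chains of average log2 CPM 5 or more, the ratio ran from 0.89 to 1.24 for knockout replicate 2 and from 0.968 to 1.17 for control replicate 3. The cause of the excess of type I chains in these libraries was not tested.

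The remaining fibrillar chains are those of type XI, which joins type II fibrils in cartilage, and types XXIV and XXVII. Col11a1 had 91.3, 87.5 and 83.9 CPM in knockout libraries and 76.9, 81.7 and 83.3 CPM in control libraries, without overlap but with adjusted p = 0.121 (edgeR, log2 fold change 0.12, SE 0.052). Col11a2, Col24a1 and Col27a1 had log2 fold changes of -0.16, -0.13 and 0.03 (edgeR adjusted p = 0.461, 0.316 and 0.787).

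**Figure D3:**
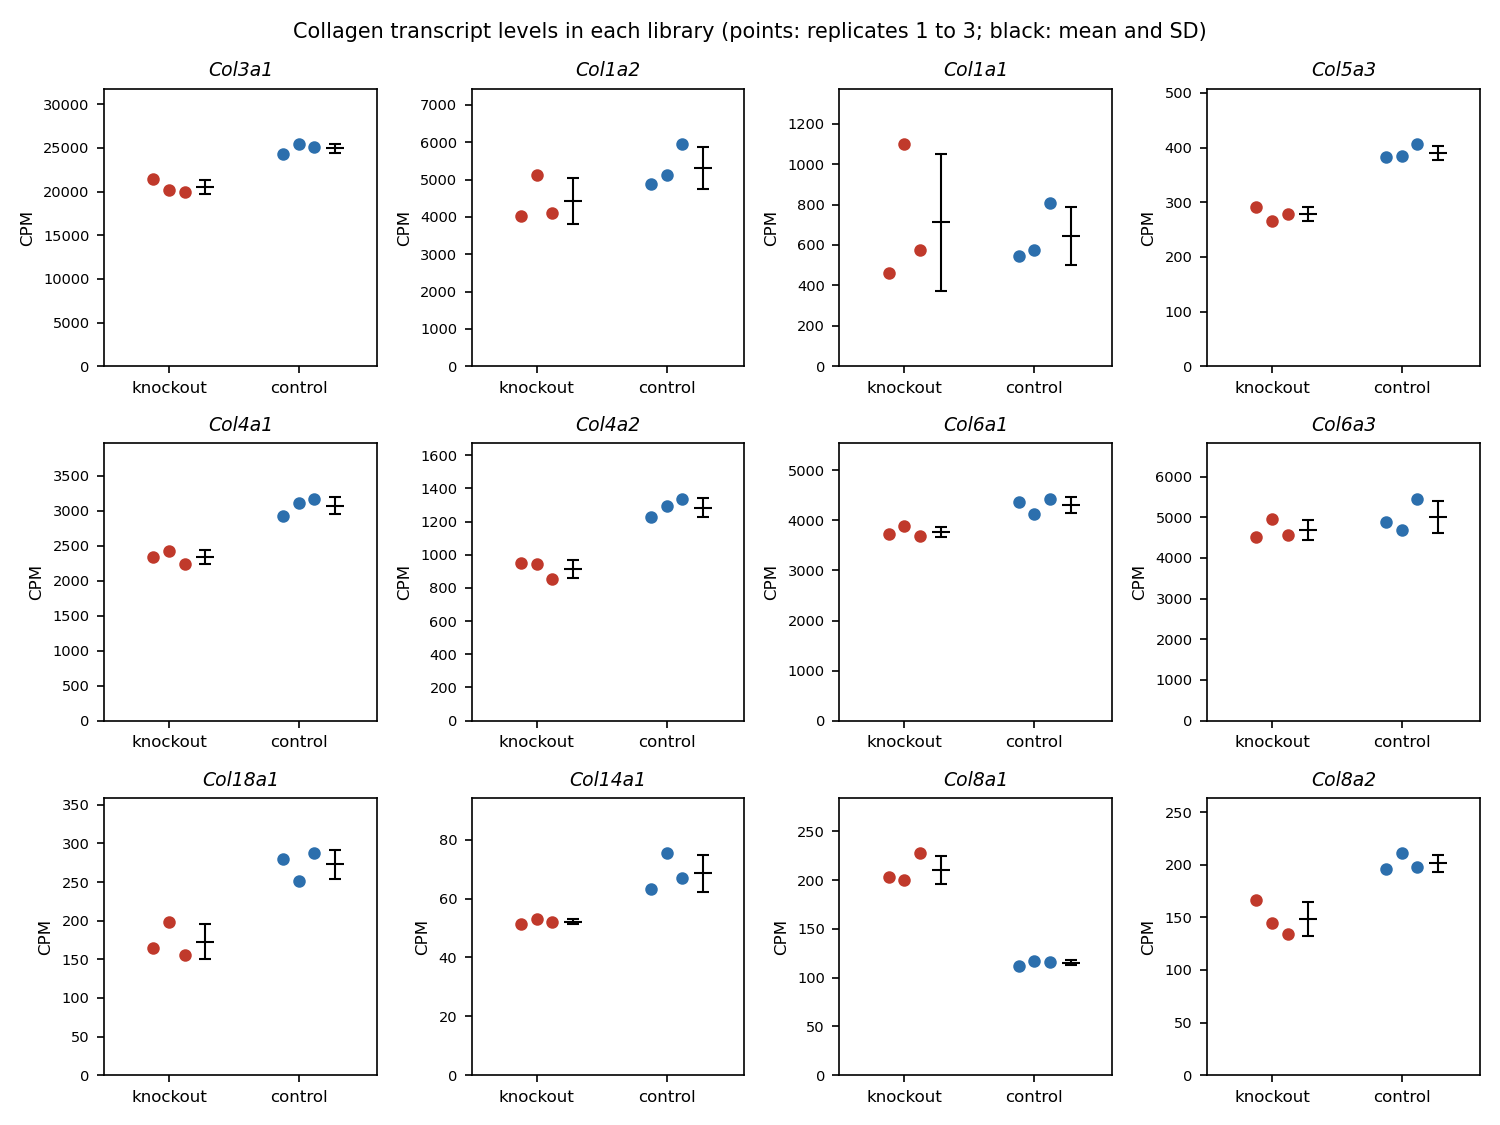
CPM of selected collagen chains in each library, knockout (left) and control (right), each panel with its own axis from 0. Knockout replicate 2 and control replicate 3 stand high for Col1a1 and Col1a2, while Col8a1, Col8a2, Col4a1, Col4a2 and Col18a1 show separate groups.

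Basement membrane collagen fell in its main chains. The α1 and α2 chains of type IV collagen assemble into one heterotrimer and are read head to head from neighbouring starts. Col4a1 (chr8:11198423-11312826, minus strand) had 2336, 2431 and 2233 CPM in knockout libraries, against 2932, 3115 and 3169 CPM in control libraries. All 3 knockout libraries were lower, and the fall was 1.32-fold (log2 fold change -0.40 with an SE of 0.053, edgeR adjusted p = 1.07e-04). Col4a2 (chr8:11312805-11449287, plus strand) had 947, 943 and 853 CPM in knockout libraries, against 1225, 1291 and 1336 CPM in control libraries. Its groups were likewise separate, with a log2 fold change of -0.49 (SE 0.055, edgeR adjusted p = 2.66e-05). The α5 and α6 chains, which form other type IV networks, were not called. Col4a5 had 164, 139 and 149 CPM in knockout libraries, against 149, 168 and 156 CPM in control libraries (log2 fold change -0.07 with an SE of 0.063, edgeR adjusted p = 0.493). Col4a6 had 16.1, 14.4 and 15.3 CPM in knockout libraries, against 12.2, 14.8 and 12.5 CPM in control libraries (log2 fold change 0.21 with an SE of 0.090, edgeR adjusted p = 0.113). These groups overlapped through control replicate 2, without which Col4a6 was called higher (log2 fold change 0.29, adjusted p = 0.0468). No type IV chain was called higher with all libraries (edgeR; 1 had an unadjusted p under 0.05, and DESeq2 and limma-voom called 0).

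The multiplexins make up the other collagens of the basement membrane zone. Col18a1, whose C-terminal end can be cut off as endostatin (chr10:77052178-77166548, minus strand), had 164, 198 and 155 CPM in knockout libraries, against 280.0, 252 and 287 CPM in control libraries. This fall of 1.58-fold (log2 fold change -0.66 with an SE of 0.090, edgeR adjusted p = 7.11e-04) was larger than that of any fibrillar or type IV chain tested. Col15a1, which links basement membranes to fibrils, had 678, 718 and 679 CPM in knockout libraries, against 730, 740.0 and 857 CPM in control libraries. Its groups did not overlap, but it was not called (log2 fold change -0.17 with an SE of 0.061, edgeR adjusted p = 0.0718). It was called without knockout replicate 2 (adjusted p = 0.0424) and without the filter on low counts (0.0177).

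Fibril-associated chains gave 2 falls among 5 tested, where 10.5% of all genes tested fell. Col14a1, found on the surface of fibrils (chr15:55307750-55520803, plus strand), had 51.2, 53.0 and 52.2 CPM in knockout libraries, against 63.2, 75.3 and 67.0 CPM in control libraries. The groups were separate and Col14a1 was 1.31-fold lower (log2 fold change -0.39 with an SE of 0.063, edgeR adjusted p = 4.88e-04). Col16a1, the FACIT chain with the highest level per kilobase in control cells (chr4:130047840-130099283, plus strand), had 242, 219.8 and 225 CPM in knockout libraries, against 273, 266 and 284 CPM in control libraries. It was 1.20-fold lower (log2 fold change -0.26 with an SE of 0.051, edgeR adjusted p = 0.00194). Col12a1, the FACIT of load-bearing tissues, took the other direction without being called. It had 381, 454 and 467 CPM in knockout libraries, against 362, 348 and 412 CPM in control libraries, which overlap (log2 fold change 0.21 with an SE of 0.085, edgeR adjusted p = 0.104). Col12a1 was called higher by DESeq2 (adjusted p = 0.0376), without the filter on low counts (1.90e-04), without control replicate 3 (0.0371) and without knockout replicate 1 (0.00605). With all libraries and the filter, edgeR and limma-voom called 0 FACIT chains higher, and 1 had an unadjusted p under 0.05 in edgeR. Col20a1 and Col9a3 were low, with log2 fold changes of -0.20 and 0.03 (edgeR adjusted p = 0.634 and 0.934).

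The network class split. Type VIII collagen is a short-chain collagen of the vessel wall and of the membrane under the corneal endothelium, made of α1 and α2 chains that can also form trimers of a single kind. Col8a1 (chr16:57624258-57754737, minus strand) had 203, 201 and 227 CPM in knockout libraries, against 112, 117 and 116 CPM in control libraries. All knockout libraries were higher, and Col8a1 rose 1.83-fold (log2 fold change 0.87 with an SE of 0.054, edgeR adjusted p = 3.81e-07). Col8a2 (chr4:126286793-126314330, plus strand) had 166, 145 and 134 CPM in knockout libraries, against 196, 211 and 198 CPM in control libraries. It was 1.36-fold lower (log2 fold change -0.44 with an SE of 0.069, edgeR adjusted p = 5.80e-04), also without overlap. The call on Col8a2 was lost when knockout replicate 2 and control replicate 3 were left out together (adjusted p = 0.0672). Per kilobase of exon, Col8a1 had 26.9 ± 1.88 CPM in knockout cells and 14.7 ± 0.319 in control cells, and Col8a2 33.1 ± 3.62 CPM in knockout cells and 44.9 ± 1.79 in control cells. The ratio of Col8a1 to Col8a2 in each library was thus 0.701, 0.795 and 0.970 in knockout libraries and 0.328, 0.318 and 0.337 in control libraries. Scaled by the longest transcript instead, the mean ratio was 1.22 in knockout cells and 0.485 in control cells. Which chain leads in knockout cells therefore depends on the length used.

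The stretches of 250 bases before the starts of both type VIII genes are shown because these chains moved in opposite directions, and those of Col18a1 and Col3a1 because these were the fall of 1.58-fold and the most abundant chain. They are from RefSeq (GRCm38.p6), 5′ to 3′ on the strand of the gene, and capitals mark GC boxes (GGGCGG or CCGCCC, its form on the other strand), the CCAAT box (ATTGG on the other strand) and the TATA box (searched as TATAAA). The windows are chr16:57754738-57754987 (minus strand), chr4:126286544-126286793 (plus strand), chr10:77166531-77166780 (minus strand, the first of 2 starts, with 18 bases in an annotated exon) and chr1:45311288-45311537 (plus strand).
Col8a1: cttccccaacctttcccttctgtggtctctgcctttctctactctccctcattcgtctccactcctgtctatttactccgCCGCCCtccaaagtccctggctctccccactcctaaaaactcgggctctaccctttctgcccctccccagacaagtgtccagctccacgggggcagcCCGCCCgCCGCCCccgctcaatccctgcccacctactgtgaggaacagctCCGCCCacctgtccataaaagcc
Col8a2: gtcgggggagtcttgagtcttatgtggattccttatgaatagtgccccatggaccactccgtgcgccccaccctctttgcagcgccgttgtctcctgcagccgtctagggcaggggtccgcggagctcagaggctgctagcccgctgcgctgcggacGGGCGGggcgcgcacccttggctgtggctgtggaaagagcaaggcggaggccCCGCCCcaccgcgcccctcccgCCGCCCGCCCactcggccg
Col18a1: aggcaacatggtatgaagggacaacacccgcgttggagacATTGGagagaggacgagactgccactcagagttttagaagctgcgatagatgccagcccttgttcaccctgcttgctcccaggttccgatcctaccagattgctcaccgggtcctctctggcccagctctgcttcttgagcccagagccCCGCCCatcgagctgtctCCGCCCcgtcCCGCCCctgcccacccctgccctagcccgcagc
Col3a1: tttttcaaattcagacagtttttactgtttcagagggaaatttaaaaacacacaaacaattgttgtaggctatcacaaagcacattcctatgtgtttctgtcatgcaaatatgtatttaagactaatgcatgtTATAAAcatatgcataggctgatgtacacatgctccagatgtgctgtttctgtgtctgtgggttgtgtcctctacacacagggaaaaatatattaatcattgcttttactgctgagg
Col8a1 and Col8a2 each held 4 GC boxes, which overlap in part in Col8a2. The window shown for Col18a1 held 3 GC boxes and 1 CCAAT box, and the window of its other start held no GC, CCAAT or TATA box. Col3a1 held no GC box but a TATAAA 117 to 112 bases before its start. The core of the TCF/LEF site, searched as CTTTGA and as TCAAAG on the other strand, was in none of the 4 windows shown. RefSeq windows were found for 35 of the 44 chains, 38 windows in all. CTTTGA was in 9 of them (23.7%), against 13.8% of the 32851 windows of all genes. Of the genes with a match, Col5a3, Col6a1, Col6a2 and Col13a1 fell, and Col15a1 and Col20a1 were not called. Col9a1, Col9a2 and Col19a1 were too low to test. Col6a2 had the match in 1 of its 2 windows, and Col13a1 reached the filter level only in control libraries. Falls made up 40% of the tested chains and 10.5% of all genes tested. Whether the match goes with a fall was not tested. GC boxes were in 57.9% of the collagen windows and 32.7% of all windows, CCAAT in 34.2% and 33.8%, and TATAAA in 13.2% and 12.4%. A match is a run of letters and not a bound site, and no match says only that these letters are not in the window.

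Type VI collagen, the microfilament around adipocytes, is made of α1, α2 and one of several longer chains. Its 3 abundant chains were lower or not called, while of the low ones Col6a5 and Col6a6 were called higher and Col6a4 was not called. Col6a1 (chr10:76708792-76726168, minus strand) had 3738, 3882 and 3682 CPM in knockout libraries, against 4368, 4129 and 4429.5 CPM in control libraries. It was 1.14-fold lower (log2 fold change -0.19 with an SE of 0.050, edgeR adjusted p = 0.0137), without overlap. Col6a2 (chr10:76595762-76623630, minus strand) had 975, 1120.3 and 951 CPM in knockout libraries, against 1197, 1141 and 1270 CPM in control libraries. Knockout replicate 2 came close to control replicate 2, and Col6a2 was 1.18-fold lower (log2 fold change -0.24 with an SE of 0.065, edgeR adjusted p = 0.016). The call on Col6a1 was lost without control replicate 1 (adjusted p = 0.0684), control replicate 3 (0.053) or knockout replicate 3 (0.0807). The call on Col6a2 was lost without control replicate 1 (adjusted p = 0.0686), control replicate 3 (0.0638), knockout replicate 1 (0.0522) or knockout replicate 3 (0.0954). Col6a3, whose C-terminal end is released as endotrophin, had 4516, 4957 and 4574 CPM in knockout libraries, against 4876, 4690.4 and 5452 CPM in control libraries. These values overlap, and Col6a3 was not called (log2 fold change -0.10 with an SE of 0.063, edgeR adjusted p = 0.313).

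The alternative long chains lay near 1 CPM. Col6a5 had 29, 32 and 24 counts in knockout libraries, against 9, 14 and 15 counts in control libraries, a rise of 2.22-fold after scaling (log2 fold change 1.15 with an SE of 0.28, edgeR adjusted p = 0.00958). Col6a6 had 21, 22 and 26 counts in knockout libraries, against 14, 8 and 14 counts in control libraries (1.92-fold higher, log2 fold change 0.94 with an SE of 0.30, edgeR adjusted p = 0.0363). Neither was called without control replicate 1 (adjusted p = 0.0602 for Col6a5 and 0.106 for Col6a6). The call on Col6a6 was also lost in DESeq2 (adjusted p = 0.155) and without control replicate 2 (0.143) or knockout replicate 3 (0.149). Col6a4 was not called (log2 fold change 0.10, edgeR adjusted p = 0.854). Col28a1, a chain with domains like those of type VI, had 25.6, 22.6 and 25.0 CPM in knockout libraries, against 19.1, 21.5 and 20.8 CPM in control libraries. It rose 1.19-fold (log2 fold change 0.25 with an SE of 0.074, edgeR adjusted p = 0.0253), but was not called without control replicate 1 (0.13), knockout replicate 1 (0.0828) or knockout replicate 3 (0.102).

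The remaining chains were of low level. Col7a1, the anchoring fibril of the skin's basement membrane, had 6.66, 7.01 and 6.98 CPM in knockout libraries, against 5.60, 5.53 and 5.16 CPM in control libraries. Its groups were separate, with a rise of 1.27-fold (log2 fold change 0.34 with an SE of 0.099, edgeR adjusted p = 0.0253). DESeq2 did not call it (adjusted p = 0.0904). Nor was Col7a1 called without control replicate 1 (adjusted p = 0.0635), control replicate 2 (0.0658), control replicate 3 (0.0786) or knockout replicate 3 (0.0839), or without control replicate 3 and knockout replicate 2 together (0.0842). Col23a1, a transmembrane collagen, had 5.42, 6.12 and 6.05 CPM in knockout libraries, against 3.63, 4.25 and 3.84 CPM in control libraries (1.5-fold higher, log2 fold change 0.59 with an SE of 0.12, edgeR adjusted p = 0.00242). Col26a1 had 0.669, 0.796 and 0.560 CPM in knockout libraries, against 2.02, 1.88 and 1.88 CPM in control libraries. All control libraries were well above the knockout libraries, a fall of 2.83-fold (log2 fold change -1.50 with an SE of 0.20, edgeR adjusted p = 1.02e-04). Col13a1, a transmembrane collagen, had 5, 5 and 1 counts in knockout libraries, against 23, 21 and 10 counts in control libraries. Its fall passed edgeR's test, but it reached the level of the filter only in the control libraries and so had to differ in order to be tested, and DESeq2 gave it no adjusted p. The fall of Col13a1 therefore supports nothing about the class. Col17a1, the hemidesmosome collagen, was not called (log2 fold change -0.41, edgeR adjusted p = 0.386).

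Ratios of chains that assemble together were compared per kilobase within each library, as a description with no test. Col4a1 to Col4a2 stood at 2.19, 2.29 and 2.32 in knockout libraries and 2.12, 2.14 and 2.10 in control libraries. Thus both chains fell by similar amounts, and their ratio shifted by 0.09 on the log2 scale without overlap between groups. Col4a5 to Col4a6 stood at 12.1, 11.5 and 11.5 in knockout libraries and 14.5, 13.5 and 14.7 in control libraries, a log2 difference of -0.28 without overlap. The ratios of Col5a1 to Col5a2, Col6a1 to Col6a2 and Col6a3 to Col6a1 overlapped between groups, with log2 differences of 0.04, 0.05 and 0.10. For Col1a1 to Col1a2 the ratio was 0.217, 0.405 and 0.265 in knockout libraries and 0.213, 0.213 and 0.257 in control libraries, again overlapping. For type III to type I, taken as Col3a1 to Col1a1, it was 30.9, 12.3 and 23.2 in knockout libraries and 29.7, 29.5 and 20.8 in control libraries. Scaled by the longest transcript, the mean ratio of Col1a1 to Col1a2 was 0.141 in knockout cells and 0.108 in control cells. That of Col3a1 to Col1a1 was 35.3 and 42.6. The levels of all these ratios depend on the length used, while their log2 differences between groups do not. Type VIII had the widest shift, a log2 difference of 1.31 in the ratio of Col8a1 to Col8a2. Whether the fold changes of paired chains differ was not tested.

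**Figure D4:**
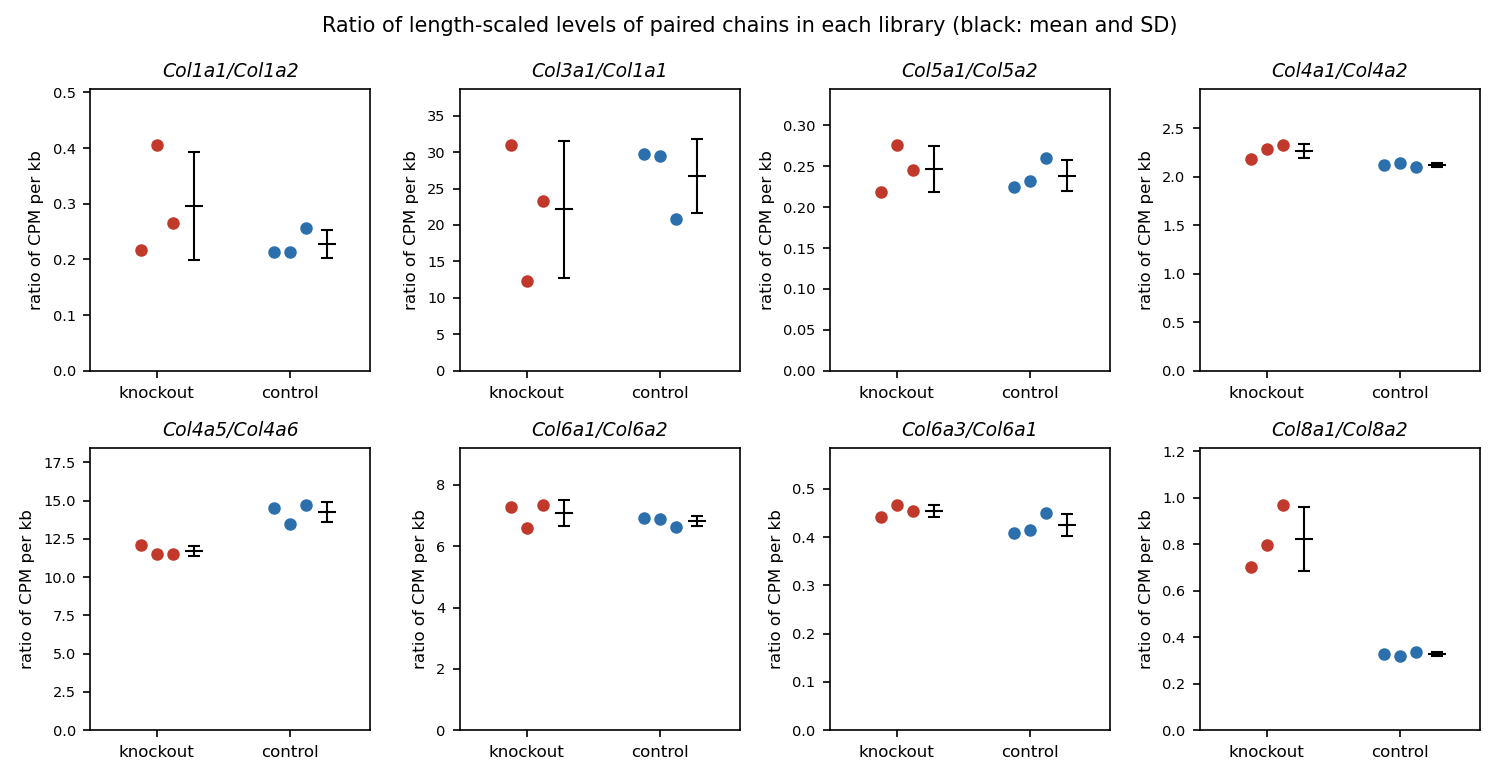
Ratio of CPM per kilobase of exon between chains that assemble together or share fibrils, in each knockout (left) and control (right) library, with mean and SD, every axis starting at 0. Col8a1 to Col8a2 lies between 0.701 and 0.970 in knockout libraries and between 0.318 and 0.337 in control libraries.

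Several collagen genes lie side by side, and their calls were read together. Col3a1 and Col5a2 are 24.6 kb apart on chromosome 1 in tail-to-tail order, and both fell. Col4a1 and Col4a2 overlap by 22 bases on chromosome 8, and both fell. Col6a2 and Col6a1 lie 85.2 kb apart on chromosome 10, and both fell. Col6a6 and Col6a5 lie 27.9 kb apart on chromosome 9 and both rose, while Col6a4, a further 28.8 kb away, was not called. Col4a6 and Col4a5 start 1308 bases apart on the X chromosome, and neither was called. Exons of genes on the opposite strand covered at most 1.33% of any called chain. The reads that they could add if counting ignored strand were not estimated.

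Proteins that trim, assemble, bind and anchor collagens were read from lists of partners, chosen with earlier results of these data known. Of the 17 genes tested for procollagen processing and fibril assembly, 4 rose, 2 fell and 11 were not called (median log2 fold change -0.066), where 11.9% of all genes tested rose and 10.5% fell. The count of falls is near that background. Pcolce2, which enhances the removal of the procollagen C-propeptide, had 22.0, 23.6 and 21.5 CPM in knockout libraries, against 11.7, 11.1 and 10.5 CPM in control libraries, a rise of 2.01-fold (edgeR adjusted p = 1.35e-06). Tll1, a protease of the kind that removes the C-propeptide, rose 1.78-fold (6.94 ± 0.949 CPM in knockout cells and 3.88 ± 0.669 in control cells, adjusted p = 7.92e-04). Prelp, a leucine-rich matrix proteoglycan, rose 1.88-fold (47.5 ± 7.36 CPM in knockout cells and 25.3 ± 4.22 in control cells, adjusted p = 0.00493). Decorin (Dcn), which coats fibrils, was 1.28-fold lower at 818 ± 3.28 CPM in knockout cells and 1048 ± 132 in control cells (adjusted p = 0.00511, and 0.0568 without knockout replicate 2). Ogn, another small proteoglycan, fell by 0.21 on the log2 scale, with 1175 ± 83.0 CPM in knockout cells and 1357 ± 52.6 in control cells (adjusted p = 0.0191, and 0.0991 without control replicate 1).

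Among 10 tested receptors and uptake genes, 2 rose, 2 fell and 6 were not called (median log2 fold change -0.058), against 11.9% of all genes tested that rose and 10.5% that fell. Itga1, whose integrin prefers type IV collagen, had 47.1, 41.3 and 45.8 CPM in knockout libraries, against 28.9, 28.9 and 27.6 CPM in control libraries, a rise of 1.57-fold (edgeR adjusted p = 8.31e-06). Itga2, the subunit of the integrin that prefers type I collagen, rose 1.77-fold at a low level (1.52 ± 0.226 CPM in knockout cells and 0.871 ± 0.227 in control cells, adjusted p = 0.0175), and the call was lost in DESeq2 (adjusted p = 0.0695) and when knockout replicate 2 (0.0615), control replicate 1 (0.0893) or control replicate 2 (0.0806) was left out. Mrc2, an endocytic collagen receptor, was 1.24-fold lower (301 ± 14.7 CPM in knockout cells and 372 ± 15.5 in control cells, adjusted p = 6.89e-04). Antxr2, which takes up type VI collagen, was 1.11-fold lower (107 ± 3.92 CPM in knockout cells and 118 ± 4.79 in control cells, adjusted p = 0.043), a call lost in 8 of the alternatives.

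Of 16 basement membrane partners tested, 2 rose, 3 fell and 11 were not called (median log2 fold change 0.0048). With 11.9% of all genes tested rising and 10.5% falling, the count of rises is near the background. Lamb3, a laminin β chain, rose 1.73-fold (6.55 ± 0.545 CPM in knockout cells and 3.78 ± 0.393 in control cells, edgeR adjusted p = 3.56e-04). Pxdn, the peroxidase that cross-links type IV collagen, rose 1.19-fold (134 ± 10.1 CPM in knockout cells and 113 ± 4.93 in control cells, adjusted p = 0.00707, and 0.0592 without control replicate 1). Lamc3, a laminin γ chain, was 2.90-fold lower (1.26 ± 0.326 CPM in knockout cells and 3.63 ± 1.02 in control cells, adjusted p = 5.23e-04). Nid1, which bridges laminin and type IV collagen, was 1.14-fold lower (840.4 ± 51.2 CPM in knockout cells and 961 ± 82.8 in control cells, adjusted p = 0.0494), a call lost in 7 of the alternatives. Of 15 tested regulators of collagen transcription, 1 rose, 1 fell and 13 were not called (median log2 fold change -0.055), a smaller share than the 22.4% of all genes tested that changed, so the calls on single genes that follow are no result about the list. Tgfbr2, a receptor for TGF-beta, was 1.14-fold lower (463 ± 24.7 CPM in knockout cells and 526 ± 36.7 in control cells, edgeR adjusted p = 0.0362). Mkx, a tendon transcription factor, rose 1.32-fold (3.52 ± 0.104 CPM in knockout cells and 2.68 ± 0.297 in control cells, adjusted p = 0.0489). The call on Tgfbr2 was lost without control replicate 1, control replicate 3, knockout replicate 1 or knockout replicate 3, and that on Mkx in 10 of the alternatives.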

How the data were processed

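Total RNA of 3 knockout and 3 control libraries was prepared with a stranded kit that removes ribosomal RNA, per the labels' protocols. The deposited values are raw counts per Ensembl gene, 1 column per library. GRCm38 is the build, and featureCounts 1.5.1, STAR 2.5.2b and DESeq2 1.16.0 are the tools, listed without roles in the submitters' processing notes. The annotation release, the strand setting and the handling of multiply mapped reads are unstated there. Symbols, coordinates and exon lengths were taken from GENCODE M21 (GRCm38), which matched 49412 of 49671 identifiers.

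The counts went into edgeR 4.0.16 under R 4.3.3 (TMM scaling, filterByExpr, robust quasi-likelihood F-test, group as the only term) across 14946 genes, with Benjamini-Hochberg adjustment at 0.05. The SE of a log2 fold change was computed as its size over the root of the F statistic. CPM are counts per 1000000 of the TMM-scaled library, with mean and SD over 3 libraries. The common biological coefficient of variation was 5.91%. The test was tried on simulated counts. Alternatives were other scalings (DESeq2 size factors, upper quartile, total count), no filter or a filter at CPM 1 in 3 samples, DESeq2 1.42.0, limma-voom (limma 3.58.1), each library left out in turn, and control replicate 3 and knockout replicate 2 left out together.

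The collagen members, partner and marker lists, tests and alternatives were chosen with earlier results of these data known. All members may be named. Called members of average log2 CPM 0 or more and the most abundant member of each class are given per library. From each partner list up to 3 called members per direction are named.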

Additional observations from a re-analysis of the deposited data

How the results depend on the processing

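No called chain changed sign in any alternative run. Of the called chains, 9 of the 14 that fell and 2 of the 6 that rose stayed called in all 14 alternatives. Col13a1 stayed called in the 12 that gave it an adjusted p, and had none in DESeq2 or with a CPM of at least 1. The number of chains that fell was 11 to 16 with 1 library left out and 13 to 15 otherwise, and the number that rose was 2 to 6 with 1 library left out (2 without control replicate 1, 3 without knockout replicate 3) and 4 to 7 otherwise. The difference in the share of all collagen counts was -0.96 to -0.798 percentage points with 1 library left out. The low chains are limited by depth, since Col13a1, Col6a5 and Col6a6 rest on 1 to 32 counts per library. With 3 libraries a group, small differences among the 15 uncalled chains cannot be told from none. No paired analysis was possible because the labels number no replicates, and the numbers used here only name libraries within a group.

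Chains whose log2 fold change turned its sign were all uncalled. With 1 library left out, Col1a1 ran up to 0.38, Col20a1 down to -0.52, Col9a3 up to 0.26 and Col6a4 up to 0.25, all without knockout replicate 1 except Col20a1 (without knockout replicate 3). Col1a1 was at -0.31 without knockout replicate 2 and -0.11 without that library and control replicate 3. Col27a1 was at -0.0026 without control replicate 2 and -0.035 without knockout replicate 1, and Col20a1 at 0.00074 without knockout replicate 1. Col9a3 was at -0.0063 in limma-voom, -0.046, -0.10 and -0.086 without control replicate 1, knockout replicate 2 and knockout replicate 3, and -0.026 without control replicate 3 and knockout replicate 2. Col6a4 was at -0.030 without control replicate 3, -0.022 without knockout replicate 2 and -0.14 without both. The cause was not tested.

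Of the partner lists, procollagen processing and fibril assembly had 5 falls without control replicate 3 and knockout replicate 2, and 3 to 4 rises and 1 to 4 falls with 1 library left out. Receptors had 1 rise in DESeq2, 1 fall with upper-quartile scaling or a CPM of at least 1, and 1 to 2 in each direction with 1 library left out. Basement membrane partners had 5 rises without the filter, 4 in DESeq2 and 5 without the 2 libraries, 1 fall with a CPM of at least 1, and 1 to 4 rises and 1 to 3 falls with 1 library left out. Regulators had 0 rises with total count scaling, without the filter, in DESeq2, in limma-voom and without the 2 libraries (1 had an unadjusted p under 0.05 in each of these but DESeq2, where 0 had), 2 falls without the filter and 3 without the 2 libraries. With 1 library left out they had 0 to 1 rises and 0 to 3 falls.

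Log2 differences in pair ratios with 1 library left out were 0.082 to 0.53 for Col1a1 to Col1a2, -0.64 to 0.025 for Col3a1 to Col1a1, -0.040 to 0.13 for Col5a1 to Col5a2, 0.076 to 0.12 for Col4a1 to Col4a2, -0.32 to -0.26 for Col4a5 to Col4a6, 0.024 to 0.10 for Col6a1 to Col6a2, 0.071 to 0.14 for Col6a3 to Col6a1 and 1.19 to 1.42 for Col8a1 to Col8a2.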
